A study of Mus musculus with 8 samples.

Results

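Mitochondrial ribosomal protein genes were taken from the deposited expression table as every entry whose symbol begins with Mrpl or Mrps followed by a number. There were 77 such genes among 11854 named entries, 48 with an Mrpl symbol (large subunit) and 29 with an Mrps symbol (small subunit). The rule used symbols only and no measured value, but it was chosen with earlier results of these data known. The study sequenced polyadenylated RNA of haematopoietic stem cells (HSCs), the self-renewing source of all blood lineages, sorted from bone marrow. All mice were C57BL/6, 4 of them wild type and 4 Nupr1-/-, with 1 library for each mouse, and the labels used here give neither age nor sex, nor the way the allele was made. Nupr1 is a small nuclear protein induced by stress, and the only comparison in the design is Nupr1-/- against wild type.

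The mitochondrial ribosome (mitoribosome) translates the few messenger RNAs made from mitochondrial DNA, all of which encode membrane subunits of the respiratory chain and ATP synthase. Its RNAs come from mitochondrial DNA, but all of its proteins are encoded in the nucleus, made in the cytosol and imported, so the 2 genomes have to be expressed in step. Some of these proteins have counterparts in the bacterial ribosome and others are found in mitochondria alone. HSCs are known to rely little on respiration while quiescent and to depend on working mitochondria when they divide and differentiate.

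The libraries held 2296101 to 4769401 reads, of which 11635 to 23842 fell on the 77 genes. Values below are normalised reads, that is reads divided by 1 size factor per library. The targeted gene did not separate the groups: Nupr1 stood at 285, 134, 245 and 318 normalised reads in wild type replicates 1 to 4 and at 179, 173, 201 and 119 in those labelled knockout (log2 difference -0.50, limma adjusted p = 0.433). The overlap came from wild type replicate 2, without which the difference was -0.77 (limma adjusted p = 0.136). The groups are therefore called wild type and labelled knockout. Trp53, which encodes p53, fell by 2.49 on the log2 scale (limma adjusted p = 0.00155), and Xist, the RNA of the inactive X chromosome, named after its values were seen, was 0 to 11.8 in wild type and 107 to 159 in libraries labelled knockout. All 16 HSC markers checked were in the table, with sums of 11818 to 16428 in wild type and 11349 to 14209 in libraries labelled knockout, and 1 of them, Mllt3, was called. Of 11 erythroid markers 6 were in the table (Alas2 was among those not in it), with sums of 2275 to 4671 in wild type and 4177 to 6112 in libraries labelled knockout, and Klf1 was called. Of 12 megakaryocyte and platelet markers 10 were in the table (Ppbp and Gp6 were not), and their sums were 961 to 1310 in wild type and 2082 to 2705 in libraries labelled knockout, 4 of them called. Of 10 B cell markers 3 were in the table, with sums of 290.4 to 7634 in wild type and 213 to 379.9 in libraries labelled knockout, Cd79a and Pax5 being among those not in it. Wild type replicate 2 lay apart from the other 7 libraries on the first principal component, which held 25.6% of the variance. Xist separated the groups completely and the labels give no sex, so a difference of sex cannot be told apart from genotype in this design. The part of the other differences in the results below was not tested, except that results are also given without wild type replicate 2.

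None of the 77 mitoribosomal genes passed the test between the groups. With limma on log2 values and Benjamini-Hochberg adjustment over 10989 genes, 0 of 48 large subunit and 0 of 29 small subunit genes had an adjusted p under 0.05, while 3.8% of all genes tested did. At an unadjusted p under 0.05 there were 5 of 77 (6.49%), against 19.7% of all genes. The edgeR quasi-likelihood test and DESeq2, run on reads recovered from the table, also passed 0 members, beside 3.1% and 7.05% of all genes. Each had 5 members at an unadjusted p under 0.05, beside 18.2% of all genes with edgeR and 20.2% with DESeq2. Mrps31, with few reads, got no adjusted p from DESeq2. The smallest limma adjusted p of any member was 0.134, that of Mrps27. Mrps27 missed the threshold with a 2.06-fold difference, so the lack of calls does not show that the members were equal between groups. In such bulk samples fewer cells of a type and less RNA per cell cannot be told apart.

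The differences of the members lay in a narrow band around 0. Their median log2 difference, labelled knockout minus wild type, was -0.01 for the large subunit and 0.04 for the small subunit, beside 0.03 for all genes tested. The middle 50% of members lay between -0.21 and 0.29, while that of all genes lay between -0.47 and 0.51. By subunit it lay between -0.21 and 0.28 for the large and between -0.32 and 0.31 for the small. Differences above 0 were found for 22 of 48 large and 15 of 29 small subunit genes, or 48.1% of members against 51.3% of all genes. A difference of at least 1 in size, which is a doubling or halving, was seen for 2 of 77 members (2.60%), Mrpl38 and Mrps27, and for 19.9% of all genes.

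The members were also measured more closely than most genes. Their median standard error was 0.33 on the log2 scale against 0.42 for all genes, and their median level was 211 against 141 normalised reads. The narrow band above was set against all genes without a match on level or standard error. The 95% interval lay wholly within -1 to 1 for 44 of 77 members (57.1%), 32 of 48 in the large and 12 of 29 in the small subunit, and for 24.9% of all genes. For those 44 genes a doubling or halving lies outside the interval. For the other 33 a difference of that size lies within the interval. Mrpl4, Mrpl38, Mrpl33, Mrpl23 and Mrps27 are among these, with intervals that do not reach 0. Fewest reads were found for Mrps31, Mrps18c and Mrpl1, the 3 members with under 20 reads in some library, with a lowest library of 6 reads for Mrps31.

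**Figure D1:**
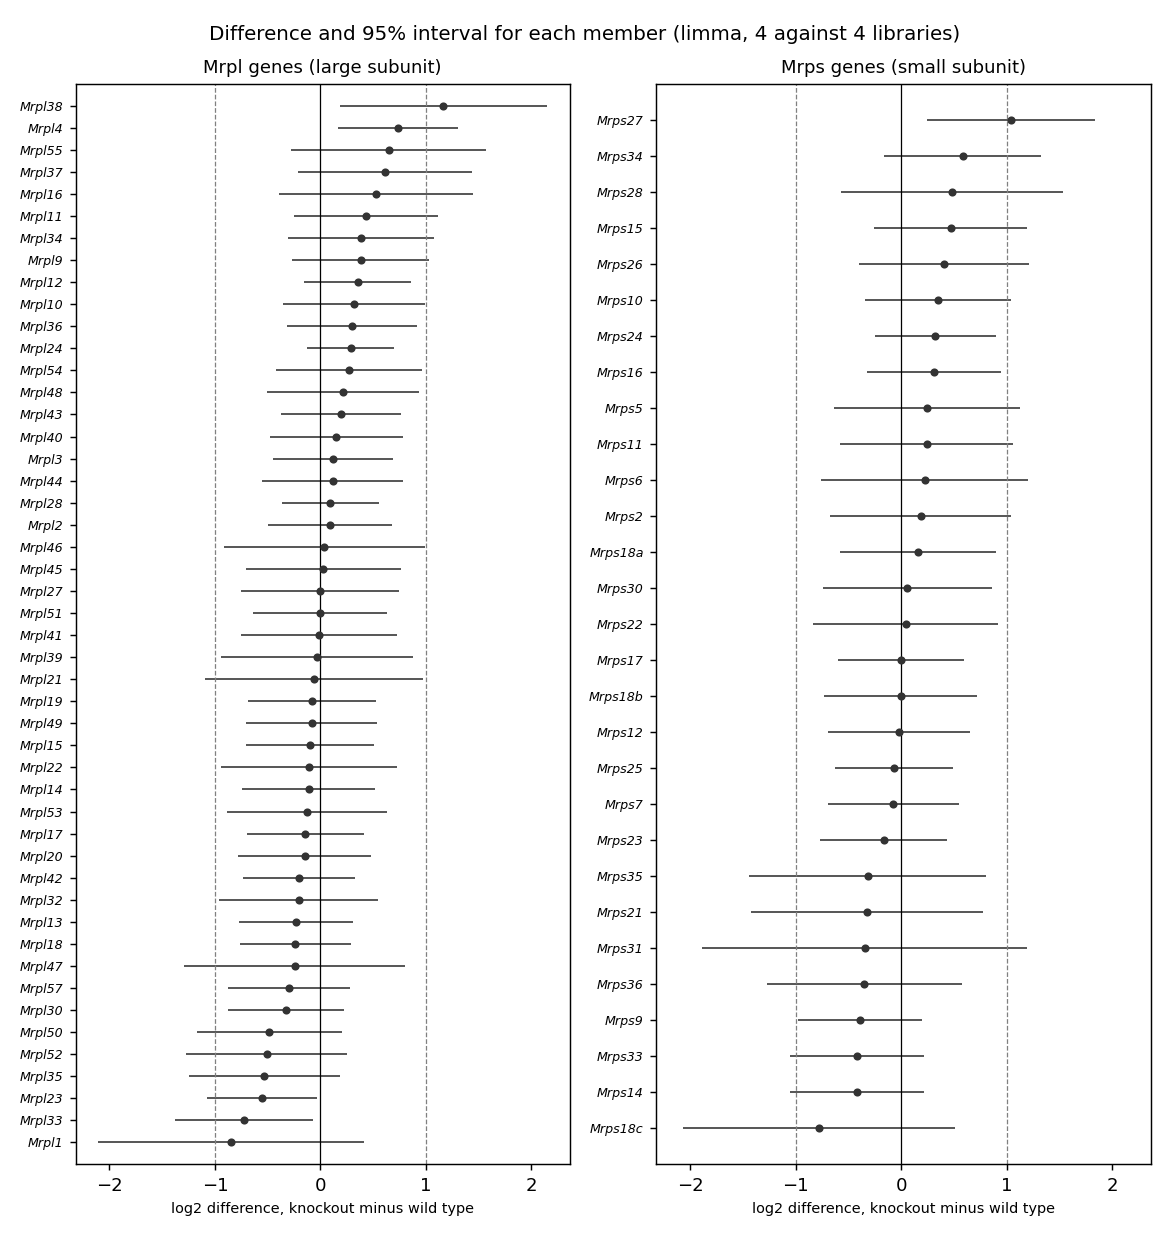
Log2 difference (labelled knockout minus wild type, horizontal axis) of each of the 48 large and 29 small subunit genes, as points with 95% intervals from limma (4 against 4 libraries). The points lie on both sides of 0, and only 5 intervals (Mrpl4, Mrpl38, Mrpl33, Mrpl23 and Mrps27) do not reach 0.

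**Figure D2:**
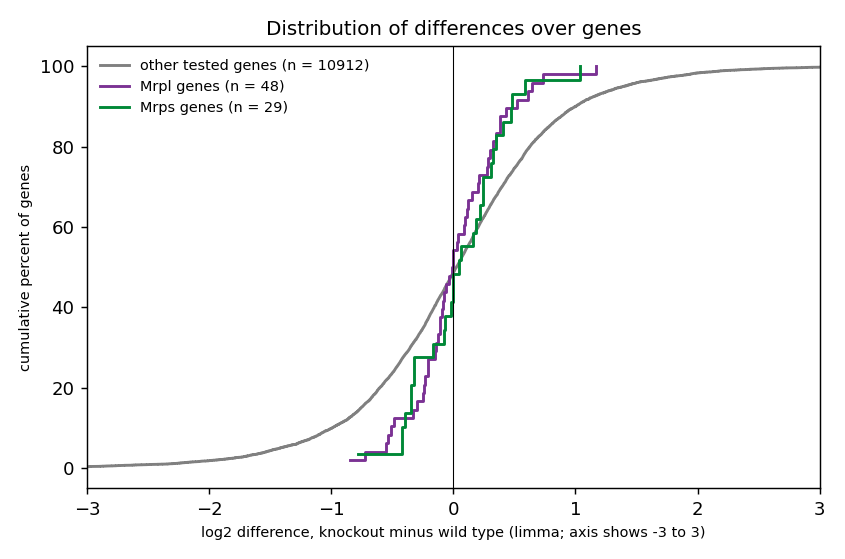
Cumulative percent of genes (vertical axis) against the log2 difference (horizontal axis, shown from -3 to 3) for large subunit, small subunit and all other genes tested. Both member curves rise more steeply around 0 than that of the other genes, with quartiles over all 77 members at -0.21 and 0.29 against -0.47 and 0.51.

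Among large subunit genes with a bacterial counterpart, 13 of 30 lay above 0 and the median was -0.07. Mrpl4, whose bacterial relative lines the tunnel through which the new protein leaves, had 185, 335, 266 and 369.6 normalised reads in wild type replicates 1 to 4 and 474, 352, 550.4 and 518 in those labelled knockout. Only the labelled knockout value of replicate 2 fell inside the wild type range. The means were 289 ± 81.5 and 473 ± 87.0 (SD, n = 4), a log2 difference of 0.74 with a 95% interval of 0.17 to 1.30 (limma adjusted p = 0.137). Mrpl4 lies on chromosome 9 from 21002738 to 21008839 (mm10, plus strand), and no annotated exon of another gene overlaps its exons.

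Mrpl23, whose bacterial relative sits at the tunnel exit, lay on the other side of 0. It had 693, 339, 585 and 535 normalised reads in wild type and 365, 359, 372 and 323 in libraries labelled knockout. Wild type replicate 2 was the single wild type library within the narrow labelled knockout range. The means were 538 ± 148 and 355 ± 21.7, a log2 difference of -0.55 with an interval of -1.07 to -0.04 (limma adjusted p = 0.222). Without wild type replicate 2 the difference was -0.76 and passed the test (limma adjusted p = 0.0438), in a fit that called 8.02% of all genes. Mrpl23 lies on chromosome 7 from 142532686 to 142540747 (plus strand).

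Mrpl33, a small protein with a bacterial counterpart of the same number, had 337, 225, 236 and 252 normalised reads in wild type and 187, 177, 102 and 176 in libraries labelled knockout. Every labelled knockout value was below every wild type value. The means were 263 ± 50.9 and 161 ± 39.0, a log2 difference of -0.73 with an interval of -1.38 to -0.07 (limma adjusted p = 0.205). Its exons, on chromosome 5 between 31596935 and 31664384 (plus strand), share 261 bases with the predicted gene Gm43809 on the same strand, so reads there cannot be given to either gene alone.

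Groups that did not overlap were found for 4 of 77 members (5.19%), against 11.7% of all genes tested. Besides Mrpl33 they were Mrps27, given below, and Mrpl24 and Mrpl11. Mrpl24, whose bacterial relative lies near the tunnel exit, had 506, 528, 510.5 and 577 normalised reads in wild type and 662, 687, 618 and 621 in libraries labelled knockout. These were tight groups set a small step apart, with a log2 difference of 0.29 and an interval of -0.12 to 0.70 (limma adjusted p = 0.442). Mrpl24 exons share 594 bases with Rrnad1 on the opposite strand, and the library kit does not mark strand.

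Mrpl11, of the base of the stalk where translation factors bind, was chosen after its values were seen. It had 142, 127, 129.6 and 132 normalised reads in wild type and 147, 202, 155.5 and 224 in libraries labelled knockout (log2 difference 0.43, interval -0.25 to 1.12, limma adjusted p = 0.490). The wild type values lay close together, and the lowest labelled knockout value was just above them. Mrpl12, the protein of the stalk itself, had 272, 417, 300.1 and 309 in wild type and 496, 382, 385 and 385 in libraries labelled knockout. Its groups overlapped through wild type replicate 2, and the log2 difference was 0.35 with an interval of -0.16 to 0.86 (limma adjusted p = 0.447).

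The large subunit genes found in mitochondria alone were split evenly, with 9 of 18 above 0 and a median of 0.01. Mrpl38, a protein of the central protuberance at the top of the subunit, had the largest difference of any member. It had 78.7, 31.5, 58.8 and 134 normalised reads in wild type and 118, 168, 217 and 119 in libraries labelled knockout. Wild type replicate 4 exceeded 2 of the labelled knockout libraries. The means were 75.7 ± 43.3 and 156 ± 47.2, a log2 difference of 1.17 with a wide interval of 0.18 to 2.15 (limma adjusted p = 0.175). Mrpl38 lies on chromosome 11 from 116131817 to 116138868 (minus strand).

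Of the large subunit genes next in order of p, Mrpl37 and Mrpl55 had log2 differences of 0.62 and 0.65, and Mrpl35 and Mrpl50 of -0.53 and -0.48. All 4 intervals held 0, and the limma adjusted p ranged from 0.406 to 0.439. The widest labelled knockout spread of these was that of Mrpl37, with 197, 111, 436 and 325 normalised reads beside 120.5, 123, 188 and 199.5 in wild type.

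**Figure D3:**
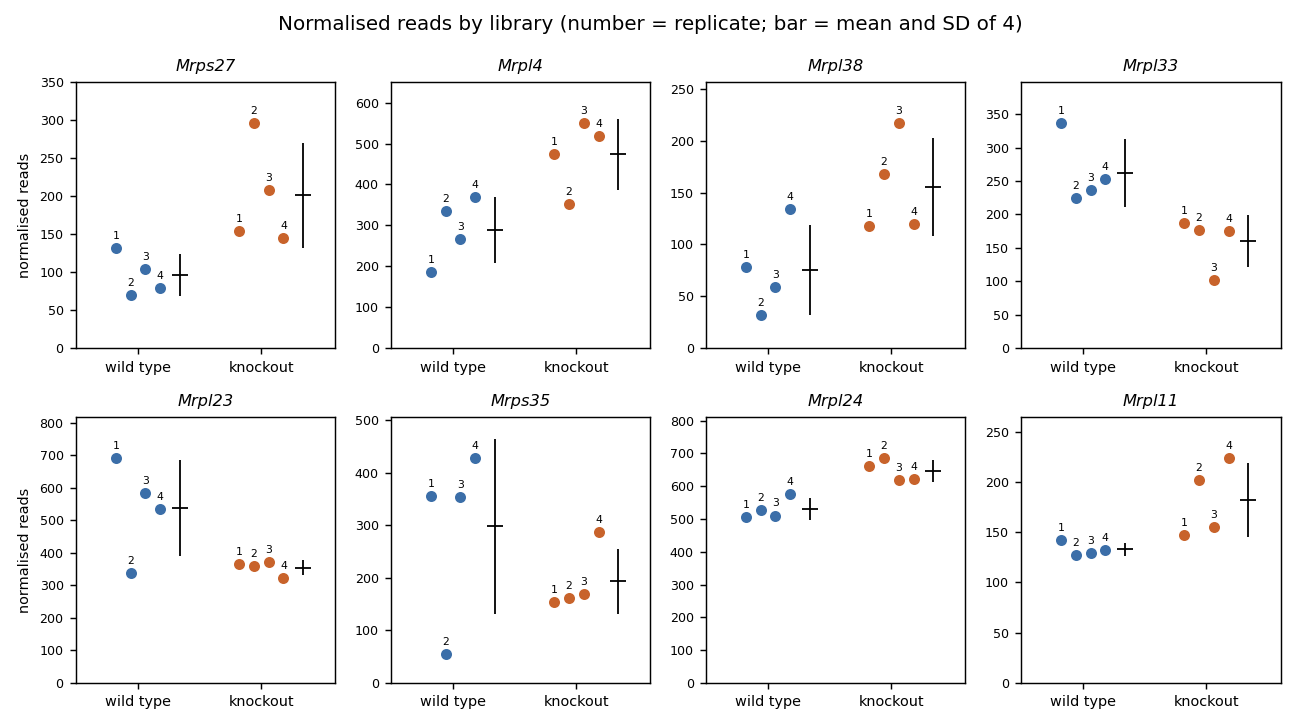
Normalised reads (vertical axis, from 0) in each of the 8 libraries for members that the text turns on, with the replicate number beside each point and the group mean and SD of 4 as bars. Mrps27, Mrpl33, Mrpl24 and Mrpl11 show groups without overlap, and wild type replicate 2 is far below the other wild type libraries for Mrps35, at 54.2 against 353 to 429.

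Among small subunit genes with a bacterial counterpart, 9 of 16 lay above 0 with a median of 0.20, and none had an unadjusted p under 0.05. Mrps12, whose bacterial relative helps to read the codon accurately, had 239, 180.3, 128 and 226 normalised reads in wild type and 187, 217, 145 and 201 in libraries labelled knockout. The wild type range held all labelled knockout values, and the log2 difference was -0.02 with an interval of -0.69 to 0.65. Mrps15 and Mrps24 had differences of 0.47 and 0.32, and Mrps14 and Mrps9 of -0.42 and -0.39, all with intervals that held 0. Without wild type replicate 2, which had 423 normalised reads of Mrps15 against 122 to 211 in the other wild type libraries, the difference of Mrps15 was 0.81 (limma adjusted p = 0.110). Mrps18c had 11.7 normalised reads (8 reads) in labelled knockout replicate 1 against 53.7 to 92.3 in the other 7 libraries, and its difference of -0.78 (limma adjusted p = 0.512) was -0.16 without that library.

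Of the small subunit genes classed as found in mitochondria alone, 4 of 10 lay above 0, with a median of -0.03. Mrps18b was counted in this class, although it descends from a bacterial protein, as given below. Mrps27, a pentatricopeptide repeat protein (a family that binds RNA), had 132, 69.96, 104 and 78.6 normalised reads in wild type and 155, 297, 209 and 144 in libraries labelled knockout. All labelled knockout values were above all wild type values. The means were 96.1 ± 28.0 and 201 ± 69.7, which is 2.06-fold on the log scale, with a log2 difference of 1.04, an interval of 0.25 to 1.83 and a limma adjusted p of 0.134. Its exons, on chromosome 13 between 99344786 and 99415562 (plus strand), share 506 bases with 6430562O15Rik on the opposite strand, so its reads may in part be from that gene. Mrps34, next in order of p among small subunit genes above 0, had 121, 73.9, 141 and 177 normalised reads in wild type and 197, 173, 210.3 and 158 in libraries labelled knockout. Wild type replicate 4 lay within the labelled knockout range, and the log2 difference was 0.58 with an interval of -0.16 to 1.33 (limma adjusted p = 0.381). It was 0.34 without wild type replicate 2 and 0.051 with the GC and length trend, described below, removed.

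Mrps35, chosen after its values were seen, showed how far 1 library could set a value. It had 355, 54.2, 353 and 429 normalised reads in wild type and 155, 162, 169 and 286 in libraries labelled knockout. Wild type replicate 2, with 55 reads, was the lowest of all 8 libraries, while the other 3 wild type libraries were the highest. With all libraries the log2 difference was -0.32 (interval -1.44 to 0.81, limma adjusted p = 0.787), and without wild type replicate 2 it was -1.01 (limma adjusted p = 0.0409). Mrpl23 and Mrps35 were the 2 members called without that library (2.60% of 77), in a fit that called 8.02% of all genes. In that fit 47 of 77 members lay above 0 with a median of 0.12, beside a median of -0.01 for all genes tested. Mrps6, also chosen after its values were seen, and Mrps18b went the other way, with 303 and 462 in wild type replicate 2 against 66.8 to 86.3 and 146 to 199 in the other wild type libraries.

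Some members are named for one subunit and found elsewhere. Mrps18a and Mrps30 are built into the large subunit despite their names, and they had log2 differences of 0.16 and 0.06 with intervals from -0.58 to 0.90 and from -0.74 to 0.86. Mrps36, now known as a component of the 2-oxoglutarate dehydrogenase complex and not of the ribosome, had a difference of -0.35 (interval -1.27 to 0.57). Mrps18a, Mrps18b and Mrps18c descend from the same bacterial protein, and their differences were 0.16, -0.00 and -0.78. Of these, Mrps18b was counted above with the genes found in mitochondria alone.

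Summed over genes, each subunit differed between groups by less than the spread between libraries. The large subunit genes summed to 11330, 11852, 10770.1 and 11184 normalised reads in wild type replicates 1 to 4 and to 10844, 11434, 11671 and 11705 in libraries labelled knockout. The means were 11284 ± 447 and 11413 ± 398, and the ranges overlapped. The small subunit sums were 5787 ± 577 in wild type and 5833 ± 253 in libraries labelled knockout, the highest being wild type replicate 2 with 6576. The ratio of large to small sums was 1.96 ± 0.145 in wild type and 1.96 ± 0.147 in libraries labelled knockout. All 77 genes together took 0.510% ± 0.035 and 0.513% ± 0.012 of the normalised total. No test is given for these sums over members.

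**Figure D4:**
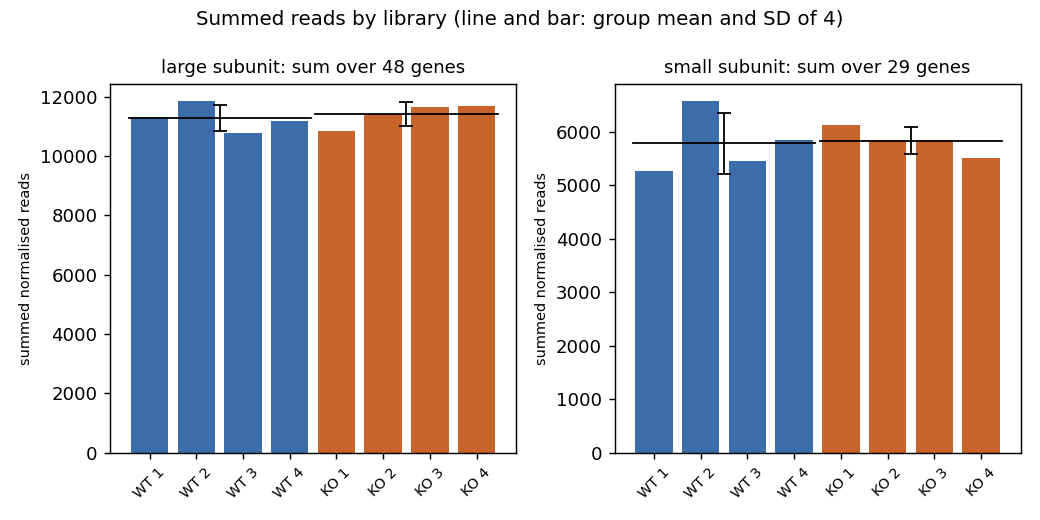
Summed normalised reads (vertical axis, from 0) of the 48 large and the 29 small subunit genes in each of the 8 libraries, with lines and bars for the group mean and SD of 4. The group means differ by less than 1 SD for both subunits.

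Members differed far more among themselves than between groups. Per 1000 bases of transcript (the one with the longest coding sequence), the highest means over the 8 libraries were those of Mrpl24 with 439.6 and Mrpl14 with 362 normalised reads, and the highest small subunit genes were Mrps15 with 252 and Mrps24 with 239. The ranges of Mrpl24 (378 to 513) and Mrpl14 (268 to 527) overlapped over the libraries, as did those of Mrps15 (117 to 408) and Mrps24 (181 to 292). The lowest were Mrpl1 with 16.5, Mrps31 with 18.3, Mrpl47 with 24.8 and Mrps5 with 34.1. Mrpl1, of the stalk that moves spent tRNA out of the ribosome, also had the lowest log2 difference of any member, -0.85 (interval -2.11 to 0.41, limma adjusted p = 0.462). It had 53.6, 86.7, 70.8 and 75.6 normalised reads in wild type and 23.3, 64.8, 19.4 and 75.9 in libraries labelled knockout, of which replicates 1 and 3 were low and the other two within the wild type range. The order was kept between groups, with a Spearman rho of 0.872 between the wild type and labelled knockout means of the 77 genes, a description across genes of the same libraries and not corrected for length.

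The difference of a member moved with the base composition of its transcript. Across the 77 genes the Spearman rho between the GC content of the transcript and the log2 difference was 0.507, and across 10891 genes with a GC value it was 0.449. Genes share their libraries, so these values are descriptions. The deviation of a gene in each library was taken from its mean over all 8 libraries. It went down with GC content in all wild type libraries (rho -0.303 to -0.138) and up in all those labelled knockout (0.150 to 0.301). The deviations share that mean, so the values of the libraries depend on each other and in part restate the group difference. Mrpl38, at 59.6% GC, and Mrpl1, at 41.6%, stood at opposite ends of the differences. With a trend on GC content and transcript length removed from each library, an alternative added after the data were seen, 0 of 77 members and 0.202% of all genes passed the limma test, and the rho across members was -0.259. In that fit Mrpl38 was no longer the farthest member from 0: its difference was 0.69, that of Mrpl4 0.30, that of Mrps27 0.81 and that of Mrpl23 -0.89 (limma adjusted p = 0.137). With wild type replicate 2 left out as well, Mrpl23 was called (-1.07, limma adjusted p = 0.0169), the only member of 77, beside 2.19% of all genes. The composition trend and the groups cannot be told apart in this design.

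**Figure D5:**
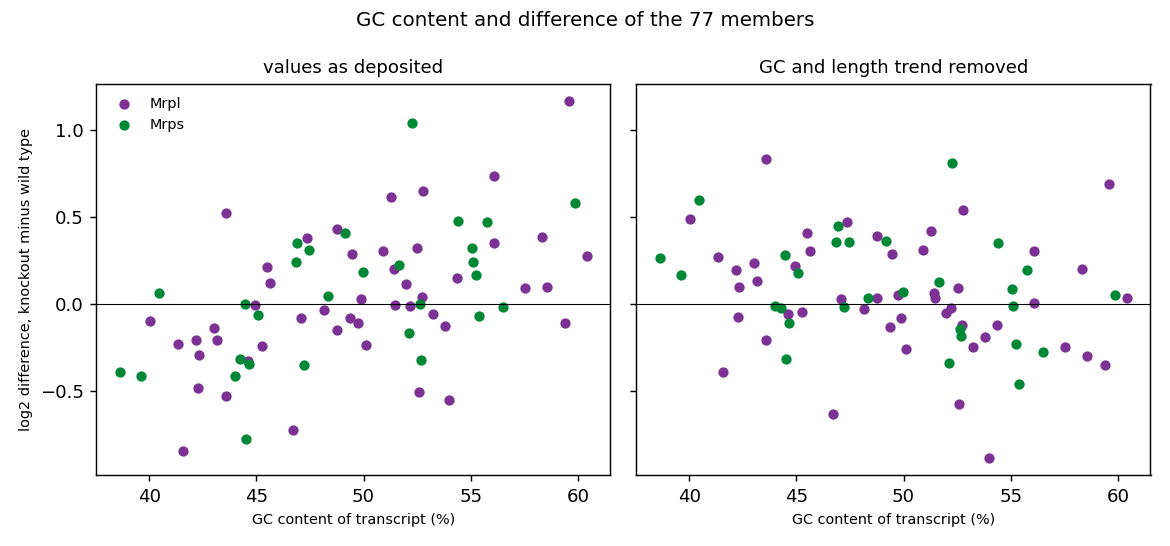
Log2 difference (vertical axis) of the 77 members against the GC content of their transcript in percent (horizontal axis), before and after the trend on GC content and length was removed from each library, large and small subunit in different colours. Before removal the points climb from left to right (rho 0.507) and afterwards they do not (rho -0.259).

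The genes lay scattered on 17 chromosomes, with the largest number, 10, on chromosome 11. A gene starting on the opposite strand within 1000 bases, so that 2 genes point away from each other or overlap at their starts, was found for 33 of 77 members (42.9%), 24 of 48 in the large and 9 of 29 in the small subunit, and for 17.6% of 10538 protein-coding genes tested. Several such neighbours are mitochondrial too: Ndufs6 beside Mrpl36 and Ndufb5 beside Mrpl47 encode parts of respiratory complex I, Sars2 beside Mrps12 a mitochondrial seryl-tRNA synthetase, and Twnk beside Mrpl43 the mitochondrial DNA helicase. Mrps11 and Mrpl46 are each other's neighbours, 1 gene of each subunit from 1 start region. Mrps11 had 70.3, 105, 192 and 209 normalised reads in wild type and 140.0, 193, 158 and 137 in libraries labelled knockout, and Mrpl46 had 48.7, 182, 128 and 159 and then 131, 156, 140.5 and 70.4. Both pairs of groups overlapped, with log2 differences of 0.24 and 0.04, and 173 bases of their exons coincide on opposite strands.

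The stretches around the start sites of Mrps27 and of the members Mrpl33 and Mrpl23, which lay below 0, are shown as examples of genes described above with groups wholly or nearly apart. That between Mrps11 and Mrpl46 is shown because the 2 subunits share it. Each is on the plus strand of GRCm38.p6, 5′ to 3′, from RefSeq. The first 3 run from 120 bases before the start to 30 bases from it on, at chr13:99344666-99344815, chr5:31613831-31613980 and chr7:142532912-142533061. The shared stretch, chr7:78783060-78783160, holds the 2 starts, 42 bases apart, with 30 bases of each transcript. Capitals mark a match to the ETS motif CCGGAAG or the YY1 motif AAGATGG on either strand.
Mrps27: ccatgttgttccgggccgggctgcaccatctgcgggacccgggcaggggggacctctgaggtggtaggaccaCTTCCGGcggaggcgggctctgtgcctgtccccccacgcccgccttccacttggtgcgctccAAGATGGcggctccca
Mrpl33: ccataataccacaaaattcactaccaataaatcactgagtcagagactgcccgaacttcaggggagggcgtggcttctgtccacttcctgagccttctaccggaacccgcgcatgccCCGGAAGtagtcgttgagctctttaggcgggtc
Mrpl23: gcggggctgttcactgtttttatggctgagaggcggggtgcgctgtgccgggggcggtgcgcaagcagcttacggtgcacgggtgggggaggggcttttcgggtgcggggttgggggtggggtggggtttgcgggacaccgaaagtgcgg
Mrps11 and Mrpl46: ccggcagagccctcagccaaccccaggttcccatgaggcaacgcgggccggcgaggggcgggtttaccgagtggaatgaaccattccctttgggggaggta
Mrps27 carries the ETS motif before its start and the YY1 motif just after it, Mrpl33 carries the ETS motif across its start, and no match was found in the other stretches printed. The longer window of Mrps11, described below, holds a YY1 match that is not in the stretch printed. Mrpl24 and Mrpl11, whose groups also did not overlap, are not printed, and their windows hold no match to the ETS, YY1 or NRF1 motif.

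ETS factors such as GABP (also called NRF2), NRF1 and YY1 are transcription factors known for driving nuclear genes of mitochondria. Windows of 300 bases (250 before the start and 50 from it on) were at hand for 68 of 77 members, the other 9 being Mrpl13, Mrpl15, Mrpl19, Mrpl38, Mrpl4, Mrpl54, Mrps28, Mrps34 and Mrps35. The ETS motif was found in 25 of 68 (36.8%), against 21.5% of 8308 tested genes with a window and 9.93% of all 27025 genes in the promoter table. The YY1 motif was found in 13 (19.1%), against 8.68% and 7.28%, and the NRF1 motif (GCGC, any base, then TGCGC) in 13 (19.1%), against 12.5% and 5.19%. At least 1 of the 3 was found in 42 of 68 (61.8%), against 36.8% and 20.03%. The NRF1 motif was in 10 of 42 large and 3 of 26 small subunit genes, and the ETS motif in 14 of 42 and 11 of 26. Matches to the ETS and YY1 motifs may overlap, some genes have more than 1 window, and a match describes the letters only.

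Other genes of mitochondrial translation likewise gave no call. Of 79 tested genes on 5 lists, 0 passed with limma, edgeR or DESeq2, and 10 (12.7%) had an unadjusted limma p under 0.05, beside 19.7% of all genes. With edgeR and DESeq2 8 each did, beside 18.2% and 20.2% of all genes. The 6 subunits that go by other symbols were Ict1 (the older symbol of Mrpl58, a hydrolase that frees stalled chains and is built into the large subunit), Dap3, Ptcd3, Aurkaip1, Chchd1 and Gadd45gip1. Their log2 differences ran from -0.45 (Chchd1) to 0.68 (Gadd45gip1, limma adjusted p = 0.290), with 4 of 6 above 0. With the GC and length trend removed Chchd1 had -0.14 and Gadd45gip1 0.30, and without wild type replicate 2 Ict1 had -0.07 in place of 0.49.

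Of 26 assembly factors, which modify, fold and dock the ribosomal RNA and proteins, 7 had an unadjusted p under 0.05, 4 above 0 and 3 below, which is 26.9% beside 19.7% of all genes. Gtpbp6, a GTPase of late large subunit assembly, had means of 160.0 ± 69.0 in wild type and 296 ± 37.5 in libraries labelled knockout (log2 difference 0.97, limma adjusted p = 0.111). Rbfa, which acts on the small subunit RNA, had 237 ± 52.4 and 398 ± 85.2 (0.75, limma adjusted p = 0.135). The 3 below 0, named after their values were seen, were Gtpbp10, Mterf3 and Trub2. Gtpbp10 had 82.4 ± 19.0 in wild type and 28.1 ± 15.6 in libraries labelled knockout (-1.67, limma adjusted p = 0.149). Mterf3 had a difference of -1.02 and Trub2 of -0.86. Afg3l2 and Ngrn, also above 0 and named after their values were seen, had differences of 0.55 and 1.03 (limma adjusted p = 0.195 and 0.151). With the GC and length trend removed the differences above 0 were 0.39 for Gtpbp6, 0.28 for Rbfa, 0.63 for Afg3l2 and 0.77 for Ngrn. Those below 0 were -1.07 for Gtpbp10, -0.60 for Mterf3 and -0.91 for Trub2. The median of the 26 genes went from 0.23 to 0.014. Of 15 tested translation factors and partners, 6 lay above 0, and the 2 of smallest p were Oxa1l, which inserts new chains into the inner membrane (0.68, limma adjusted p = 0.147), and the elongation factor gene Tufm (0.43). With the trend removed they had 0.42 and 0.035.

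Of 20 mitochondrial aminoacyl-tRNA synthetase and related genes, 13 lay above 0 with a median of 0.42, which was 0.13 with the GC and length trend removed. Lars2, for leucine, had 72.6 ± 35.8 normalised reads in wild type and 180.4 ± 74.2 in libraries labelled knockout (log2 difference 1.30, limma adjusted p = 0.122). Aars2, for alanine, had 28.4 ± 26.3 and 86.1 ± 44.4 (1.99, limma adjusted p = 0.159). Its groups overlapped, and wild type replicates 2 and 4 had only 8.87 and 6.05 normalised reads. The difference of Aars2 was 1.58 with edgeR and 1.65 without wild type replicate 2. With the trend removed Lars2 had 1.13 and Aars2 1.44. Among 12 genes that copy or transcribe mitochondrial DNA, 6 lay above 0, and the 2 of smallest p were Polg, the polymerase (0.77), and Ssbp1, the single-strand binding protein (-0.48), with limma adjusted p of 0.299 and 0.342. Polg had 0.46 without wild type replicate 2, and with the trend removed Polg had 0.52 and Ssbp1 0.036.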

How the data were processed

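RNA of sorted bone marrow HSCs from 8 mice was reverse transcribed and made into Nextera XT libraries, per the labels' protocols; the submitters' processing notes name bcl2fastq, HISAT2, featureCounts, Subread, DESeq2 and mm10, without versions. The values deposited by the authors are a normalised signal: in every library 100% were whole multiples of 1 step (tolerance 0.001), so reads were recovered by division (for wild type replicate 3, whose step is near 1, from low values). The count test thus became an alternative. Each entry was above 0 in at least 3 libraries. The 1 entry without a name (at most 0.00109% of reads) was left out and 17 date-like names were kept as they are.

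Values were put on the scale log2(value + 1). On it the differences of low genes could be smaller or larger than in the count tests. The assembly factor gene Mettl15 had 1.61 with limma and 2.06 with edgeR. Aars2 had 1.99 and 1.58, Mrpl1 -0.85 and -0.64, and Mrps18c -0.78 and -0.47. Genes with at least 10 in at least 4 libraries were tested (10989, all 77 members among them) with limma 3.58.1 (trend, robust; R 4.3.3), two-sided, Benjamini-Hochberg adjusted p under 0.05. edgeR 4.0.16 and DESeq2 1.42.0 were run on recovered reads. Alternatives were an added value of 5, no filter, each library left out and a replicate block; after the data were seen, removal of a GC and length trend was added. The fit was tested on simulated data, in which doubled genes were rarely called. P-values measure the spread between mice.

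Positions, GC content and overlaps come from GENCODE M21 (11718 symbols matched, 455 through an older symbol), promoter sequences from RefSeq (GRCm38.p6). Named were, in each subunit, the 4 members of smallest p in each direction and the 2 highest and 2 lowest per length, Mrpl12, Mrps12, Mrps18a to Mrps18c, Mrps30, Mrps36, Mrpl58, the other subunits, the 2 genes of smallest p per companion list, Nupr1 and Trp53; further genes were named after their values were seen. Members and lists were chosen with earlier results of these data known.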

Additional observations from a re-analysis of the deposited data

Results flagged for a closer look

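In some groups of 4 libraries 1 value lay far from the other 3, by a gap whose share of the group's whole range was above Dixon's 95% critical value. Of 88 groups of named genes checked 7 did so, and chance alone gives about 1 in 20. In libraries labelled knockout these were Mrpl55, at 229 normalised reads in replicate 2 against 133 to 139 in the others, Mrpl33, at 102 in replicate 3 against 176 to 187, Mrpl47, at 131 in replicate 4 against 54.8 to 63.6, Mrpl12, at 496 in replicate 1 against 382 to 385, and Oxa1l, at 1057 in replicate 3 against 658 to 672. In wild type they were Mrps18b, at 462 in replicate 2 against 146 to 199, and Ssbp1, at 520.1 in replicate 1 against 324 to 355. Over all 77 members there were 2 such values in wild type, both high in replicate 2 (Mrps6 and Mrps18b), and 7 in libraries labelled knockout, spread over the 4 replicates.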

How the results depend on the processing

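The count of genes called among all tested was 418, and it was 775 with DESeq2, 277 with the replicate block, 22 with the GC and length trend removed, 239 with that trend and wild type replicate 2 removed, and 49 to 881 with each library left out. It was 341 with edgeR, 487 with an added value of 5 and 351 without the filter. Large subunit genes called were 0 to 1 with each library left out and 1 with the GC and length trend and wild type replicate 2 removed (Mrpl23, log2 difference -1.07, limma adjusted p = 0.0169; 2.19% of all genes called), and small subunit genes 0 to 1. The cause of these shifts was not tested. Replicate numbers did not pair the mice (correlations of deviations -0.0566 to 0.0148), and with the replicate block 0 members were called beside 2.52% of all genes. Mrps35, named after its values were seen and not counted in what follows, was called without wild type replicate 2 (limma adjusted p = 0.0409). Of 660 alternative values for the 44 genes named by rule, 625 kept direction and side of the threshold and 2 passed it (Mrpl23). The other 33 changed sign, all from differences whose intervals held 0. With the trend removed these were Mrps9 0.26, Mrps14 0.17, Mrps18a -0.23, Ptcd3 0.16, Aurkaip1 -0.11 and Ssbp1 0.036. With the trend and wild type replicate 2 removed they were Mrpl47 0.089, Mrps34 -0.17, Mrps9 0.24, Mrps33 0.050, Mrps14 0.15, Mrps31 0.26, Mrps18a -0.22, Mrps18b 0.27, Mrps36 0.15, Ict1 -0.14, Ptcd3 0.49, Aurkaip1 -0.044 and Ssbp1 0.073. With each library left out the differences ran from -0.24 to 0.060 for Mrpl14, -0.63 to 0.29 for Mrps31, -0.21 to 0.34 for Mrps18b, -0.28 to 0.31 for Mrps30, -0.20 to 0.099 for Mrps12, -0.073 to 0.86 for Ict1 and -0.53 to 0.0073 for Ptcd3. Depth limits Mrps31, Mrps18c and Mrpl1 most, and the 33 members whose intervals reach past -1 or 1 cannot be said to be equal between groups.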
